A study of Homo sapiens with 59 samples.

Results

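The apolipoprotein genes *APOA1*, *APOA2*, *APOA5*, *APOB*, *APOC1*, *APOC3*, *APOE*, *APOH* and *APOM*, and *MTTP*, the gene of the microsomal triglyceride transfer protein, were followed in HepG2 cells given herbal water extracts. These 10 genes were taken by name from a deposited table of 60675 genes, and each was among the 16641 genes with enough counts to test. HepG2 is an established human liver cancer line that makes many proteins of the liver. RNA was collected 24 h after treatment and sequenced in 59 libraries. The treated groups received wortmannin, which blocks phosphoinositide 3-kinases, at 10 uM, or 1 of 6 water extracts. Fresh ginger (Zingiberis Rhizoma Recens), dried ginger (Zingiberis Rhizoma), Scutellariae Radix, Pinelliae Tuber and Zizyphi Fructus were given at 20, 100 and 500 ug/mL. Coptidis Rhizoma was given at 8.4, 42 and 210 ug/mL, since the series text sets the top dose at the IC20 where that is below 500 ug/mL. The protocol describes extraction of dried plants, so fresh ginger is here the name of the herbal drug. Controls received DMSO vehicle. There were 20 groups of 3 libraries, except Pinelliae 20 ug/mL, which had 2.

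Apolipoproteins are the protein parts of lipoproteins, the particles that carry triglyceride and cholesterol in blood, and the liver secretes most of them. *APOB* encodes the scaffold of very-low-density lipoprotein (VLDL), onto which the MTTP protein loads lipid in the endoplasmic reticulum before the particle is secreted. Smaller apolipoproteins exchange between particles: ApoA-I and ApoA-II are the main proteins of high-density lipoprotein (HDL), ApoC-III slows and ApoA-V speeds the removal of triglyceride from blood, and ApoE and ApoC-I act on particle uptake.

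Libraries held 21582593 to 31392071 expected counts, with a median of 25834177. Levels are CPM, for which each library total was first corrected by its TMM scaling factor from edgeR. Whether libraries overlap is therefore judged after this scaling, while percentages of counts use the uncorrected totals. Errors are SD over the libraries of a group. A change was called where the p-value of edgeR's quasi-likelihood test, two-sided and adjusted by Benjamini-Hochberg over all genes tested, was under 0.05. All 19 comparisons with vehicle use the same 3 vehicle libraries. Sample labels put the vehicle at 0.1% DMSO and the series text at 2%, and for treated groups the labels give no DMSO. In the title codes the first number is 1 for vehicle (written A1) and wortmannin (written 1), 2 for the gingers, 3 for Scutellariae and Pinelliae, and 4 for Zizyphi and Coptidis. All 59 titles also carry the label BatchA, those of vehicle and of treated libraries alike. Within the codes the letter A stands before those of vehicle alone, and what it and the number mean is not given. Against vehicle, code and extract therefore cannot be told apart, and wortmannin differs from vehicle in the letter but not in the number. All doses of an extract carry the same number. Nothing states that replicates are separate cultures, and p-values may then reflect technical spread alone. A library of dried ginger 500 ug/mL (replicate 1), of Pinelliae 100 ug/mL (replicate 3) and of Zizyphi 20 ug/mL (replicate 1) stood apart from its group. All 10 hepatocyte markers examined, among them *ALB* and *HNF4A*, were present. Of 8 enterocyte markers *SI* was at 0 in every library and 3 others stayed under 1 CPM, while *VIL1* was at 382 ± 3.17 CPM in vehicle. Of 10 markers of blood, endothelium and stroma *COL1A2* was at 0 and 5 others stayed under 1 CPM, while *ACTA2* was at 51.1 ± 2.21 and *CD68* at 29.2 ± 2.28 CPM in vehicle (SD, n = 3 each).

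Sequences upstream of the RefSeq starts of 5 members are shown because these members stand for the patterns described here. *APOA5* and *APOH* fell at the top doses of Coptidis, Scutellariae and both gingers, *APOA2* rose with Coptidis and wortmannin, *APOM* was highest with wortmannin, and *MTTP* moved in both directions. Each run holds the 250 bases before a start on GRCh38.p14, read 5′ to 3′ on the strand of the gene. Capitals mark matches on either strand to AGGTCA, a half-site of nuclear receptors such as HNF4A, to TGTTTAC, a forkhead motif, or to GTTAAT, a half-site of HNF1.
APOA5, chr11:116792421-116792670, minus strand: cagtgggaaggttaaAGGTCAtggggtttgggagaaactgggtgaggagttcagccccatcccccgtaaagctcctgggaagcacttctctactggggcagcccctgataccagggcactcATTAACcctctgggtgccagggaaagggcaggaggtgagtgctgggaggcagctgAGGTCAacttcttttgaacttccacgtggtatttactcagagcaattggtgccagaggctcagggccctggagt
APOH, chr17:66229416-66229665, minus strand: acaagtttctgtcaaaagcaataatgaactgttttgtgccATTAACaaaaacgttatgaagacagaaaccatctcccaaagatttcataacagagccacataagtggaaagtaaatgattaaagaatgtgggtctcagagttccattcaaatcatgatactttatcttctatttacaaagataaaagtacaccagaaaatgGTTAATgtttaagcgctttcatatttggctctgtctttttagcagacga
APOA2, chr1:161223629-161223878, minus strand: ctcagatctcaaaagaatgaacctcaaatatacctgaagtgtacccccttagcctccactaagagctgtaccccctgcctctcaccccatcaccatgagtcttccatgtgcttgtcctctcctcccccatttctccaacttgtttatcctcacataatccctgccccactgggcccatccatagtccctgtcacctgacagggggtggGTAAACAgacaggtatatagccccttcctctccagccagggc
APOM, chr6:31655644-31655893, plus strand: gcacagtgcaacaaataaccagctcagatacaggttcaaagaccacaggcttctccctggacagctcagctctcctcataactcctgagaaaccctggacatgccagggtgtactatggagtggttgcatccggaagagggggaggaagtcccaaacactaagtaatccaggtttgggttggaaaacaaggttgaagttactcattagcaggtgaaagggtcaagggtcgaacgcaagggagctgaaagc
MTTP, chr4:99574574-99574823, plus strand: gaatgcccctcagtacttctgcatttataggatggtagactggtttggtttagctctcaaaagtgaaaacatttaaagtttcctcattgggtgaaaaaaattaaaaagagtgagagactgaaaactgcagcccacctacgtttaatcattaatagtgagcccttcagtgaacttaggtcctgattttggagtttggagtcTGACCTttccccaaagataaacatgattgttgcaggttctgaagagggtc

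The *APOA5* window held 2 matches to AGGTCA and 1 to GTTAAT, and the *APOH* window 2 to GTTAAT. The *APOA2* window held 1 match to TGTTTAC and the *MTTP* window shown 1 to AGGTCA, and the *APOM* window held none of the 3 motifs. Of the windows not shown, the other of *MTTP*, the 3 of *APOE* and the 1 of *APOC1* held none of the motifs, and the other of *APOA5* held 1 match to AGGTCA. Of 35116 windows of this length before RefSeq starts, 12.1% held AGGTCA, 2.98% held TGTTTAC and 6.23% held GTTAAT. The windows shown for *APOH*, *APOM* and *MTTP* belong to starts inside the span that GENCODE gives for the gene. Windows were found for 7 of the 10 members.

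On GRCh38 with GENCODE 29, *APOA5* (chr11:116789367-116792420), *APOC3* (chr11:116829706-116833072) and *APOA1* (chr11:116835751-116837950) lie near each other, as do *APOE* (chr19:44905754-44909393) and *APOC1* (chr19:44914247-44919349). The other members lie apart, *APOA2* at chr1:161222292-161223631, *APOB* at chr2:21001429-21044073, *MTTP* at chr4:99563761-99623999, *APOM* at chr6:31652416-31658210 and *APOH* at chr17:66212033-66256525. Per kilobase of merged exons, vehicle cells held most of *APOA2* (2079 ± 101 CPM per kb, SD, n = 3), followed by *APOB* (1268 ± 5.49), *APOH* (989 ± 4.91) and *APOA1* (783 ± 38.9). *APOE* stood at 229 ± 13.3, *APOC1* at 98.9 ± 4.83 and *APOC3* at 56.1 ± 3.49 CPM per kb. *APOM* (35.4 ± 0.880), *MTTP* (17.5 ± 0.304) and *APOA5* (10.7 ± 0.590) were the least abundant per length. Together the 10 genes took 2.93% ± 0.0112 of counts with wortmannin, 1.36% ± 0.0608 with Coptidis 210 ug/mL, 1.60% ± 0.0331 with Scutellariae 500 ug/mL and 2.46% ± 0.0244 in vehicle (SD, n = 3 each). *APOB*, the longest of them, took 2.24%, 0.915%, 1.15% and 1.92% of counts in these groups.

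Of 190 tests of a member against vehicle, 69 were called. In bulk RNA, as here, fewer cells of a type and less RNA per cell cannot be told apart. Pinelliae and Zizyphi gave 3 of 60 (5%), where 1.77% of all gene tests of these 6 comparisons were called. Wortmannin and the other 4 extracts gave 66 of 130 (50.8%), where 28.3% of all gene tests of these 13 comparisons were called. With wortmannin 8 members rose and 1 fell, where 32.2% of all genes were called (16.2% higher and 16% lower). With Coptidis 210 ug/mL 2 rose and 7 fell, where 69.4% of all genes were called (34.8% higher and 34.5% lower). With fresh ginger 500 ug/mL 2 rose and 5 fell, where 46% of all genes were called (23.5% higher and 22.5% lower), and dried ginger 500 ug/mL gave the same counts, where 42.4% of all genes were called (21.5% higher and 20.9% lower). Without the dried ginger library that stood apart, 7 members were called, and the share of all genes in that fit is not given here. With Scutellariae 500 ug/mL 0 rose and 6 fell, where 50.2% of all genes were called (24.7% higher and 25.5% lower). Coptidis at 42 ug/mL raised 4 and lowered 4, where 46.9% of all genes were called (23.4% higher and 23.5% lower), and at 8.4 ug/mL it raised 1 and lowered 4, where 16% of all genes were called (8.58% higher and 7.39% lower). At the top doses of the gingers, Scutellariae and Coptidis a large part of all genes was called, so counts of 6 to 9 of 10 members are read beside a high background. The median log2 change of the 10 members was 0.50 with wortmannin, -0.77 with Coptidis 210 ug/mL, -0.43 with Scutellariae, -0.28 with fresh and -0.18 with dried ginger at 500 ug/mL, beside medians of all genes from 0.00 to 0.02.

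**Figure D1:**
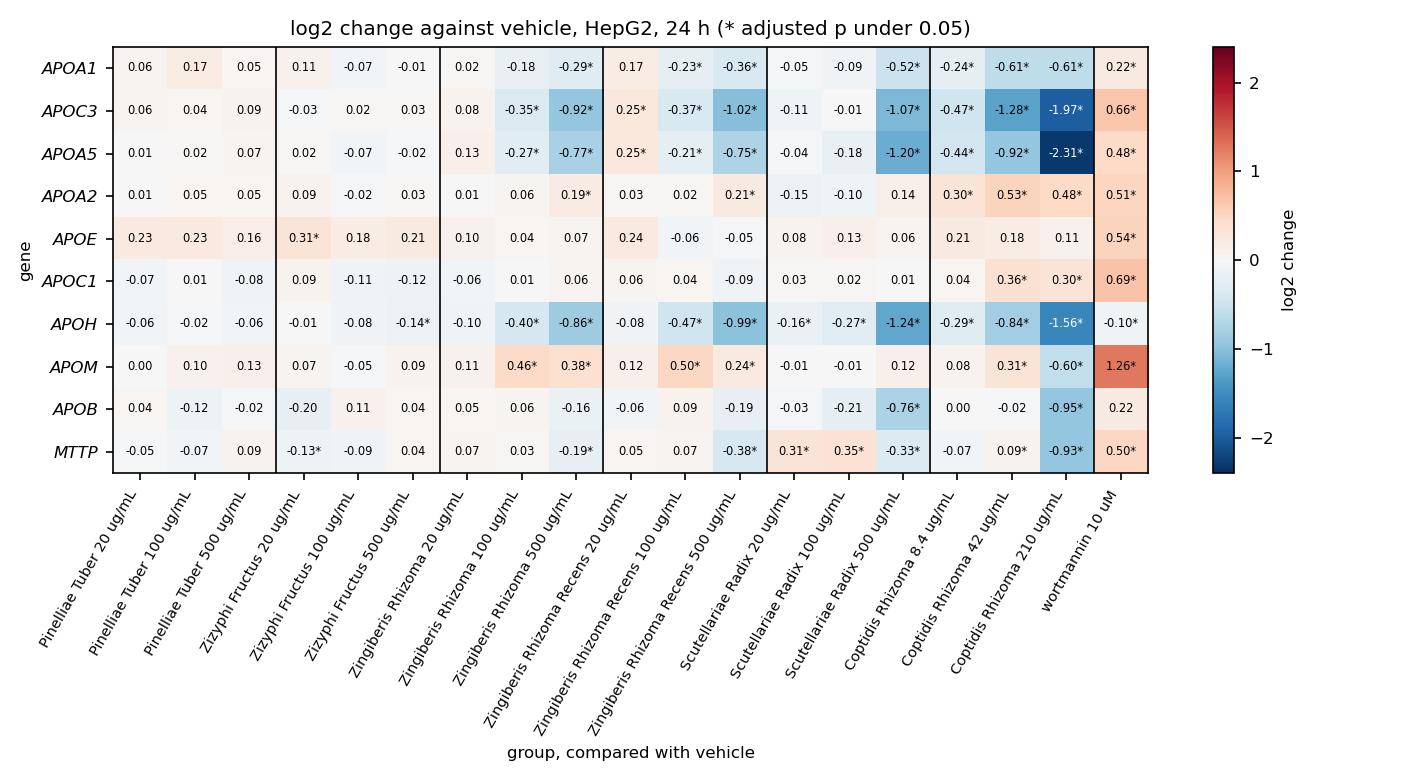
Log2 change against vehicle of each member (rows) in each treated group (columns, doses low to high within an extract), with an asterisk where the adjusted p was under 0.05. *APOC3*, *APOA5* and *APOH* are lower toward the top doses of the gingers, Scutellariae and Coptidis, *APOA2* reaches 0.53 with Coptidis 42 ug/mL and *APOM* 1.26 with wortmannin; *MTTP* with Coptidis 42 ug/mL (0.09) is at -0.07 when libraries are scaled by their totals alone.

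*APOA5* and *APOC3*, whose products act in opposite senses on triglyceride removal, moved together. Both fell with every dose of Coptidis, with both gingers at 100 and 500 ug/mL and with Scutellariae 500 ug/mL, and both rose with wortmannin. *APOA5* had 19.8, 20.6 and 22.03 CPM in vehicle, 15.9, 13.4 and 16.7 CPM at 8.4 ug/mL of Coptidis, 11.1, 10.1 and 11.6 CPM at 42 ug/mL and 5.01, 4.06 and 3.48 CPM at 210 ug/mL. No step between neighbouring doses overlapped. From the low to the top dose the log2 change against vehicle was -0.44 (SE 0.08), -0.92 (SE 0.083) and -2.31 (SE 0.098), the last with adjusted p = 1.26e-26 and a level 4.95-fold lower than in vehicle. *APOC3* had 45.2, 49.5 and 50.99 CPM in vehicle, 35.6, 34.2 and 35.6 CPM at 8.4 ug/mL, 21.5, 19.5 and 19.03 CPM at 42 ug/mL and 13.3, 10.8 and 13.2 CPM at 210 ug/mL. Again no neighbouring doses overlapped, and the log2 change was -0.47 (SE 0.069), -1.28 (SE 0.074) and -1.97 (SE 0.079), the last with adjusted p = 1.78e-27. Scaling by library totals alone moved the median of all genes by -0.152, -0.162 and -0.119 (log2) at the 3 Coptidis doses, and both genes were called lower at each dose under it too.

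At 500 ug/mL of Scutellariae, *APOA5* had 9.55, 8.68 and 8.82 CPM and *APOC3* 21.8, 21.8 and 25.6 CPM. All of these libraries lay below every vehicle library, with log2 changes of -1.20 (SE 0.086) and -1.07 (SE 0.073) and adjusted p of 4.91e-17 and 6.96e-18. At 100 and 20 ug/mL neither gene was called, although *APOA5* at 100 ug/mL (-0.18, adjusted p = 0.108) was called lower without replicate 3 of that dose (-0.25, adjusted p = 0.044, range over the settings tried 0.044 to 0.487). Fresh and dried ginger at 500 ug/mL gave -0.75 (SE 0.083) and -0.77 (SE 0.082) for *APOA5* and -1.02 (SE 0.073) and -0.92 (SE 0.072) for *APOC3*, with adjusted p of 7.83e-11 at most. At 100 ug/mL fresh and dried ginger gave -0.37 (SE 0.069) and -0.35 (SE 0.069) for *APOC3* and -0.21 (SE 0.079) and -0.27 (SE 0.079) for *APOA5*. There fresh ginger raised 1 and lowered 4 members, where 22.2% of all genes were called (12.1% higher and 10.2% lower), and dried ginger raised 1 and lowered 3, where 17.5% of all genes were called (9.76% higher and 7.75% lower).

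The smaller *APOA5* and *APOC3* calls with ginger were lost when single libraries were left out. With fresh ginger 100 ug/mL the *APOA5* call (adjusted p = 0.0492) was lost without replicate 2 or 3 of vehicle or replicate 1, 2 or 3 of fresh ginger 100 ug/mL, and with the replicate number as a block (adjusted p 0.0555 to 0.188 there, 0.0152 to 0.188 over all settings tried). With dried ginger 100 ug/mL it (adjusted p = 0.00967) was lost without replicate 3 of vehicle or replicate 2 of dried ginger 100 ug/mL (adjusted p 0.0528 to 0.063 there, 0.00172 to 0.063 over all settings tried). Fresh ginger 20 ug/mL raised 2 members and lowered 0, where 5.1% of all genes were called (2.75% higher and 2.35% lower), and these were *APOA5* by 0.25 (SE 0.075) and *APOC3* by 0.25 (SE 0.066), with adjusted p = 0.0448 and 0.0207. The *APOA5* call was lost without replicate 1 or 2 of vehicle or replicate 2 or 3 of fresh ginger 20 ug/mL, and with scaling by library totals and with the replicate number as a block (adjusted p 0.0525 to 0.258 there, 0.0197 to 0.258 over all settings tried). The *APOC3* call was lost without replicate 1 or 2 of vehicle or replicate 1 or 3 of fresh ginger 20 ug/mL (adjusted p 0.0608 to 0.165 there, 0.000371 to 0.165 over all settings tried).

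Wortmannin raised *APOA5* to 29.04, 29.9 and 28.1 CPM, above all vehicle libraries, a log2 change of 0.48 (SE 0.074) with adjusted p = 9.11e-07. *APOC3* rose to 76.8 ± 1.89 CPM with wortmannin, against 48.6 ± 3.02 CPM in vehicle (0.66, SE 0.065, adjusted p = 1.03e-11). Of the 20 groups wortmannin had the highest and Coptidis 210 ug/mL the lowest mean of both genes, with a ratio of highest to lowest of 6.93 for *APOA5* and 6.18 for *APOC3*, the widest ranges among the 10 members. With the groups ordered by mean, 6 of 19 neighbouring pairs did not overlap for *APOA5* and 6 of 19 for *APOC3*. The order came from the same values, and the like count for all genes is not given here.

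**Figure D2:**
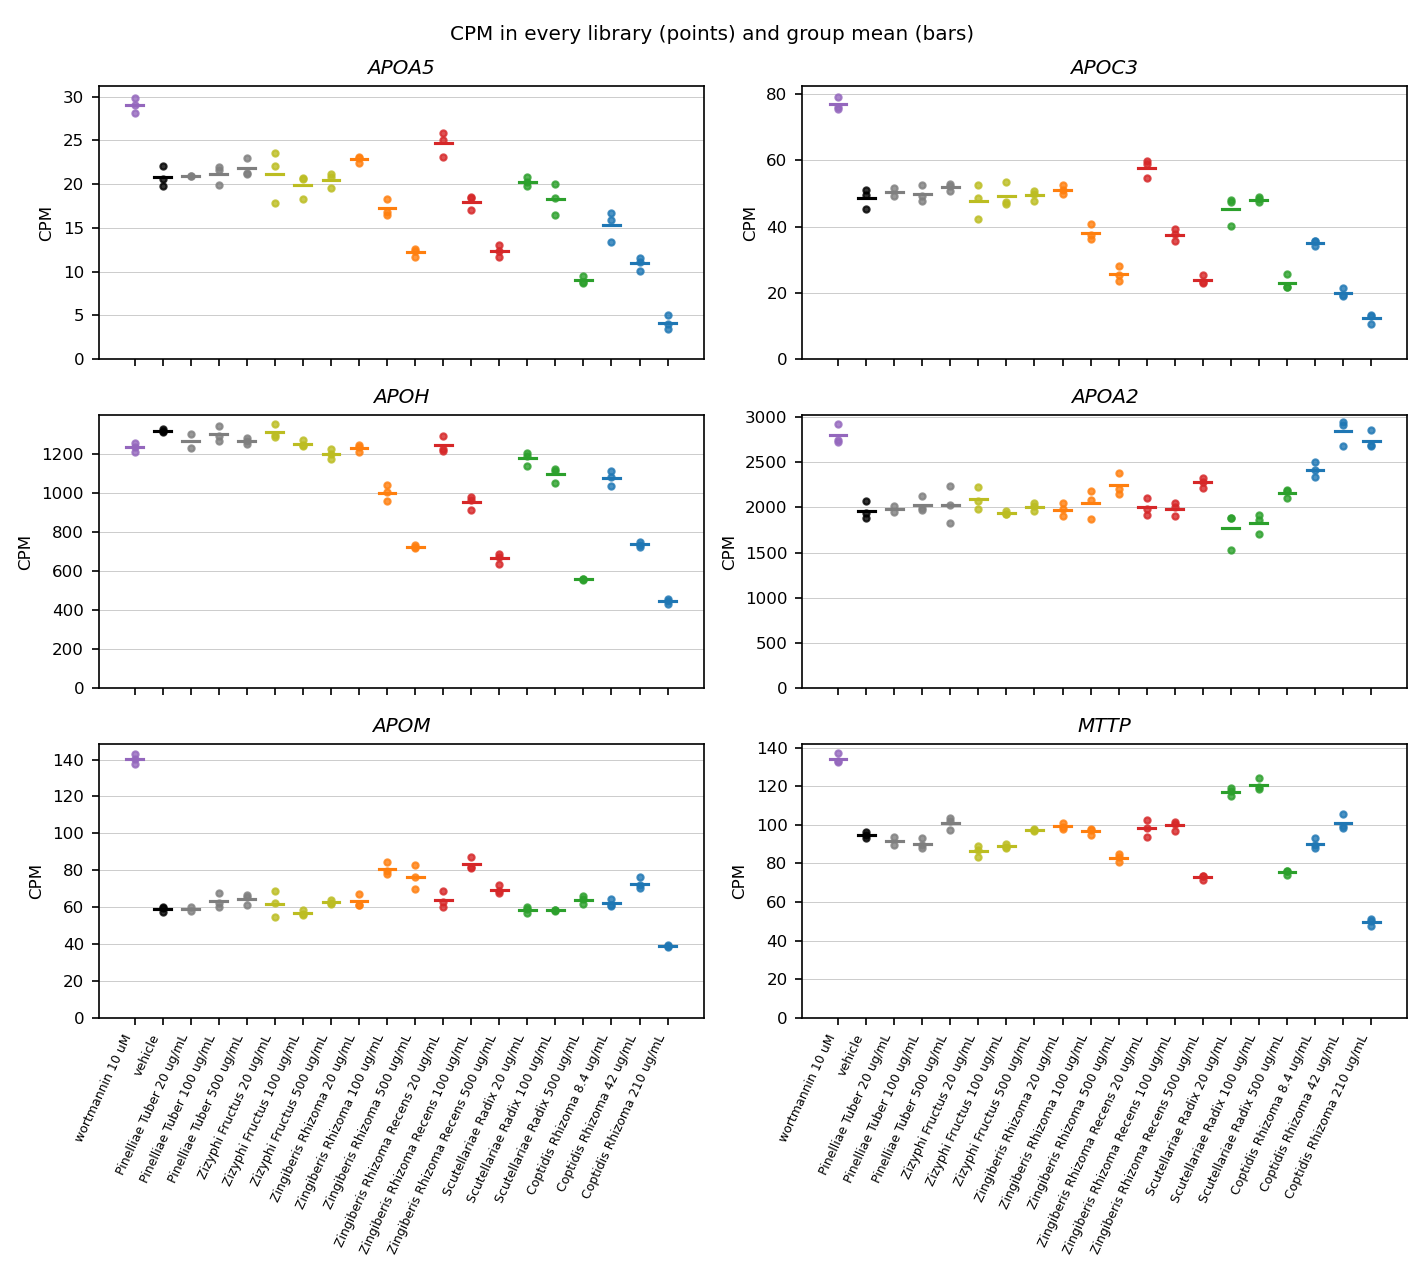
CPM (linear axes from 0) of 6 members in every library (points) with group means (bars); wortmannin and vehicle are followed by each extract with its doses from low to high. *APOA5*, *APOC3* and *APOH* step down with the dose of Coptidis to means of 4.18, 12.4 and 445 CPM, and *APOM* is at 140.4 CPM with wortmannin.

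*APOA1*, the gene of the main HDL protein, lies beside *APOC3* and had a narrower range. It fell with all 3 doses of Coptidis, with Scutellariae 500 ug/mL and with both gingers at 500 ug/mL and fresh ginger at 100 ug/mL, and was called higher with wortmannin. *APOA1* had 1053, 1159 and 1134 CPM in vehicle, 924, 898 and 1015 CPM at 8.4 ug/mL of Coptidis, 767, 662 and 762 CPM at 42 ug/mL and 797, 671 and 718 CPM at 210 ug/mL. Every Coptidis library lay below every vehicle library, and the upper doses overlapped each other. From the low to the top dose the log2 change was -0.24 (SE 0.086), -0.61 (SE 0.086) and -0.61 (SE 0.086), with adjusted p = 0.0488, 4.3e-08 and 1.46e-08. The call at 8.4 ug/mL was lost without replicate 2 or 3 of vehicle or replicate 1 or 2 of Coptidis 8.4 ug/mL (adjusted p 0.11 to 0.18 there, 1.15e-06 to 0.18 over all settings tried). With Scutellariae 500 ug/mL *APOA1* was at 777 ± 21.5 CPM, against 1116 ± 55.4 CPM in vehicle (SD, n = 3 each; -0.52, SE 0.086, adjusted p = 1.07e-06). Fresh and dried ginger at 500 ug/mL gave -0.36 (SE 0.086) and -0.29 (SE 0.086), with adjusted p of 0.000424 and 0.00514. Fresh ginger 100 ug/mL gave -0.23, SE 0.086, adjusted p = 0.0443, a call lost without replicate 2 or 3 of vehicle or replicate 1 or 2 of fresh ginger 100 ug/mL (adjusted p 0.0785 to 0.169 there, 2.47e-06 to 0.169 over all settings tried). The call with wortmannin, 0.22 (SE 0.085) with adjusted p = 0.0412, was lost without replicate 1, 2 or 3 of vehicle or replicate 2 or 3 of wortmannin, and in DESeq2 (adjusted p 0.0547 to 0.195 there, 7.22e-06 to 0.195 over all settings tried).

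*APOA2*, the gene of the other main HDL protein, was called higher with all 3 doses of Coptidis, with both gingers at 500 ug/mL and with wortmannin, and lower in no comparison with vehicle. *APOA2* had 2070.3, 1937 and 1886 CPM in vehicle, 2334, 2415 and 2495 CPM at 8.4 ug/mL of Coptidis, 2912, 2946 and 2678 CPM at 42 ug/mL and 2676, 2849.8 and 2688 CPM at 210 ug/mL. Every Coptidis library exceeded every vehicle library, and the upper doses overlapped each other. The log2 change was 0.30 (SE 0.061), 0.53 (SE 0.061) and 0.48 (SE 0.061), with adjusted p of 0.000268 at most, so at each dose of Coptidis *APOA1* was lower and *APOA2* higher than in vehicle. With scaling by library totals alone *APOA2* was at 0.15 (adjusted p = 0.0479), 0.37 and 0.36 at these doses, and *APOA1* at 8.4 ug/mL was at -0.39 (adjusted p = 0.000483). Wortmannin gave 2924, 2747 and 2723 CPM, also above every vehicle library (0.51, SE 0.061, adjusted p = 2.07e-09). Fresh ginger 500 ug/mL gave 0.21 (SE 0.061) and dried ginger 0.19 (SE 0.061), with adjusted p = 0.0034 and 0.00842. The call with dried ginger was lost without replicate 3 of vehicle or replicate 3 of dried ginger 500 ug/mL (adjusted p 0.0588 to 0.075 there, 3.34e-05 to 0.075 over all settings tried). With Scutellariae 500 ug/mL *APOA2* was not called (0.14, adjusted p = 0.0571), except under 4 of the processing alternatives and without replicate 1 of vehicle (0.18, adjusted p = 0.0301, range over the settings tried 0.000737 to 0.203).

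*APOC1*, whose product slows triglyceride breakdown and particle uptake, rose in 3 comparisons with vehicle and fell in none. Wortmannin libraries had 195, 197 and 196 CPM, against 117, 129 and 119.6 CPM in vehicle. These groups did not overlap (0.69, SE 0.073, adjusted p = 1.09e-10). Coptidis gave 165, 150.1 and 154 CPM at 42 ug/mL (0.36, SE 0.073, adjusted p = 4.74e-05) and 158, 144 and 149 CPM at 210 ug/mL (0.30, SE 0.074, adjusted p = 0.000284), all above vehicle. With scaling by library totals alone these values were 0.20 (adjusted p = 0.0206) and 0.18 (adjusted p = 0.0251). The copy *APOC1P1*, with which *APOC1* can share reads, was at 0.789 to 3.14 CPM.

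*APOE*, the gene of a ligand for receptors of the LDL receptor family, was called with wortmannin, at 743, 699.7 and 737 CPM against 475, 496 and 533 CPM in vehicle, without overlap (0.54, SE 0.083, adjusted p = 8.87e-07). Most other groups also lay above vehicle for *APOE*, those of Pinelliae and Zizyphi by 0.16 to 0.31 (log2). Of these, Zizyphi 20 ug/mL was called (0.31, SE 0.083, adjusted p = 0.0369). That group holds a library that stood apart, without which *APOE* was at 0.27, adjusted p = 0.031. The call was lost without replicate 1, 2 or 3 of vehicle or replicate 1 or 2 of Zizyphi 20 ug/mL, and when only the 2 groups were fitted (adjusted p 0.052 to 0.186 there, 1.72e-10 to 0.186 over all settings tried). With Coptidis 42 ug/mL *APOE* was not called (0.18, adjusted p = 0.0731), except under 3 of the processing alternatives and without replicate 3 of that dose (0.23, adjusted p = 0.0432, range over the settings tried 0.000102 to 0.89).

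*APOB*, the VLDL scaffold gene, was called in 2 of 19 comparisons with vehicle, both times lower. It had 8859, 9965 and 10343 CPM with Coptidis 210 ug/mL, against 18797, 18892 and 18730.1 CPM in vehicle. With Scutellariae 500 ug/mL it had 10874, 10939 and 11526 CPM. Neither group overlapped vehicle, and the log2 change was -0.95 (SE 0.109) with Coptidis and -0.76 (SE 0.109) with Scutellariae (adjusted p = 8.03e-11 and 5.73e-08). At the lower doses of Coptidis, 8.4 and 42 ug/mL, it was 0.00 and -0.02, without a call. Scaling by library totals alone moved the median of all genes by -0.152 and -0.162 (log2) at these doses. *APOB* took 1.73% ± 0.0881 and 1.69% ± 0.0834 of counts there, against 1.92% ± 0.0197 in vehicle (SD, n = 3 each). *APOB* has a long transcript, and the 1570 tested genes with more than 10000 bases of merged exons had a median change of 0.09 with Coptidis 210 ug/mL and -0.01 with Scutellariae 500 ug/mL.

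*APOB* was low in 2 of the libraries that stood apart, with 12919 CPM in that of Pinelliae 100 ug/mL, beside 19358 and 19758, and 11089 CPM in that of Zizyphi 20 ug/mL, beside 16964 and 21177. Against vehicle, *APOB* was at -0.12 (log2) with Pinelliae 100 ug/mL and -0.20 with Zizyphi 20 ug/mL. Genes with more than 10000 bases of merged exons had medians of -0.06 and -0.08 in these groups. Whether length played a part in any group was not tested. Without the 3 libraries that stood apart, *APOB* was also called with wortmannin (0.21, adjusted p = 0.00166), fresh ginger 500 ug/mL (-0.20, adjusted p = 0.00255) and Scutellariae 100 ug/mL (-0.21, adjusted p = 0.0049), where the fit of all libraries gave 0.22, -0.19 and -0.21 with adjusted p = 0.122, 0.16 and 0.223. Over all settings tried the adjusted p ran from 6.93e-09 to 0.219 with wortmannin, 2.27e-05 to 0.276 with fresh ginger and 6.85e-05 to 0.439 with Scutellariae. Without replicate 3 of Zizyphi 20 ug/mL, *APOB* was called lower in that group (-0.43, adjusted p = 0.00431, range 0.000385 to 0.961), which then held the library that stood apart and 1 other.

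*MTTP*, whose product loads lipid onto ApoB, was called in 9 comparisons with vehicle, 4 higher and 5 lower. Wortmannin libraries had 133, 133 and 137 CPM, against 93.1, 96.4 and 94.5 CPM in vehicle, without overlap (0.50, SE 0.033, adjusted p = 1.61e-17). With Scutellariae the direction depended on the dose: *MTTP* had 117, 119 and 115 CPM at 20 ug/mL, 119, 124 and 119.8 CPM at 100 ug/mL and 74.1, 76.05 and 75.9 CPM at 500 ug/mL. The lower doses lay above all vehicle libraries and the top dose below them, with log2 changes of 0.31 (SE 0.033), 0.35 (SE 0.033) and -0.33 (SE 0.034) and adjusted p of 1.72e-09 at most. Scutellariae raised 1 member, *MTTP*, and lowered 1, *APOH*, at 100 ug/mL, where 14.6% of all genes were called (7.27% higher and 7.34% lower), and at 20 ug/mL, where 4.74% of all genes were called (2.57% higher and 2.17% lower).

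With Coptidis 210 ug/mL *MTTP* fell, to 47.8, 49.9 and 50.9 CPM (-0.93, SE 0.035, adjusted p = 6.51e-29). At 42 ug/mL it had 98.2, 99.3 and 105 CPM and was called higher (0.09, SE 0.033, adjusted p = 0.0176). That call was lost without replicate 1 or 3 of vehicle or replicate 3 of Coptidis 42 ug/mL, and without a filter on low counts (adjusted p 0.0503 to 0.113 there, 0.00539 to 0.113 over all settings tried), and with scaling by library totals alone the value was -0.07 (adjusted p = 0.0747). At 8.4 ug/mL *MTTP* was not called (-0.07, adjusted p = 0.16), except with scaling by totals alone (-0.22, adjusted p = 5.09e-07, range over the settings tried 5.09e-07 to 0.584). At 500 ug/mL fresh ginger lowered *MTTP* to 72.8 ± 1.41 CPM and dried ginger to 82.9 ± 2.05 CPM, against 94.7 ± 1.64 CPM in vehicle (SD, n = 3 each), with log2 changes of -0.38 (SE 0.034) and -0.19 (SE 0.033) and adjusted p of 4.75e-06 at most. *MTTP* overlaps *TRMT10A* on the opposite strand, at 7.48 to 11.8 CPM, and whether counting used the strand is not given in the sources used here, so reads of *TRMT10A* cannot be told apart.

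*APOH* encodes beta-2-glycoprotein I, a plasma protein that binds phospholipid. It was called lower in 12 of 19 comparisons, the most of any member. *APOH* had 1315, 1312 and 1325 CPM in vehicle, 1034, 1082 and 1112 CPM at 8.4 ug/mL of Coptidis, 750.2, 735 and 725 CPM at 42 ug/mL and 447, 457 and 432 CPM at 210 ug/mL. No neighbouring doses overlapped, and the log2 change was -0.29 (SE 0.034), -0.84 (SE 0.034) and -1.56 (SE 0.035), the last with adjusted p = 2.89e-38. Scutellariae gave -0.16 (SE 0.034), -0.27 (SE 0.034) and -1.24 (SE 0.035) from 20 to 500 ug/mL, with adjusted p of 0.00125 at most and 559, 559.8 and 552 CPM at the top dose. Fresh ginger gave -0.47 (SE 0.034) at 100 and -0.99 (SE 0.035) at 500 ug/mL, and dried ginger -0.40 (SE 0.034) and -0.86 (SE 0.034), with adjusted p of 2.69e-13 at most.

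Wortmannin libraries had 1254, 1234 and 1211 CPM of *APOH*, a smaller fall without overlap with vehicle (-0.10, SE 0.034, adjusted p = 0.0266). That call was lost without replicate 2 or 3 of wortmannin, and without a filter on low counts (adjusted p 0.0582 to 0.11 there, 0.00143 to 0.11 over all settings tried). With Zizyphi 500 ug/mL, where 3.61% of all genes were called (2.09% higher and 1.53% lower) and *APOH* was the 1 member called, the change was -0.14 (SE 0.034) with adjusted p = 0.0141, a call lost without replicate 2 of Zizyphi 500 ug/mL, and without a filter on low counts (adjusted p 0.057 to 0.0714 there, 0.00102 to 0.0714 over all settings tried). Vehicle had the highest mean of all 20 groups for *APOH*, and the values of the other 19 lay between -1.56 and -0.01 (log2).

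*APOM*, whose product carries sphingosine-1-phosphate in HDL, had its highest level with wortmannin. Wortmannin libraries had 143, 141 and 138 CPM, against 59.98, 57.2 and 59.2 CPM in vehicle, a 2.39-fold higher level without overlap (log2 change 1.26, SE 0.054, adjusted p = 3.51e-24). Fresh ginger gave 83.4 ± 3.12 CPM at 100 and 69.3 ± 2.35 CPM at 500 ug/mL, and dried ginger 80.7 ± 3.27 and 76.3 ± 6.42 CPM, against 58.8 ± 1.46 CPM in vehicle (SD, n = 3 each). All 4 groups were called higher, with log2 changes of 0.50 (SE 0.055) and 0.24 (SE 0.056) for fresh and 0.46 (SE 0.055) and 0.38 (SE 0.055) for dried ginger and adjusted p of 0.00039 at most. With Coptidis the direction differed between doses: 76.1, 72.05 and 70.1 CPM at 42 ug/mL lay above vehicle (0.31, SE 0.055, adjusted p = 6.77e-06; 0.15, adjusted p = 0.0292, with scaling by totals alone), and 38.98, 39.3 and 38.3 CPM at 210 ug/mL lay below it (-0.60, SE 0.058, adjusted p = 6.21e-13). With Scutellariae 500 ug/mL *APOM* was not called (0.12, adjusted p = 0.0683), except under 3 of the processing alternatives and without replicate 2 of that dose (0.15, adjusted p = 0.0491, range 0.00494 to 0.207). The span of *APOM* overlaps the end of *BAG6* on the opposite strand, at 299.6 to 478 CPM, and whether reads of *BAG6* entered its count was not tested.

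**Figure D3:**
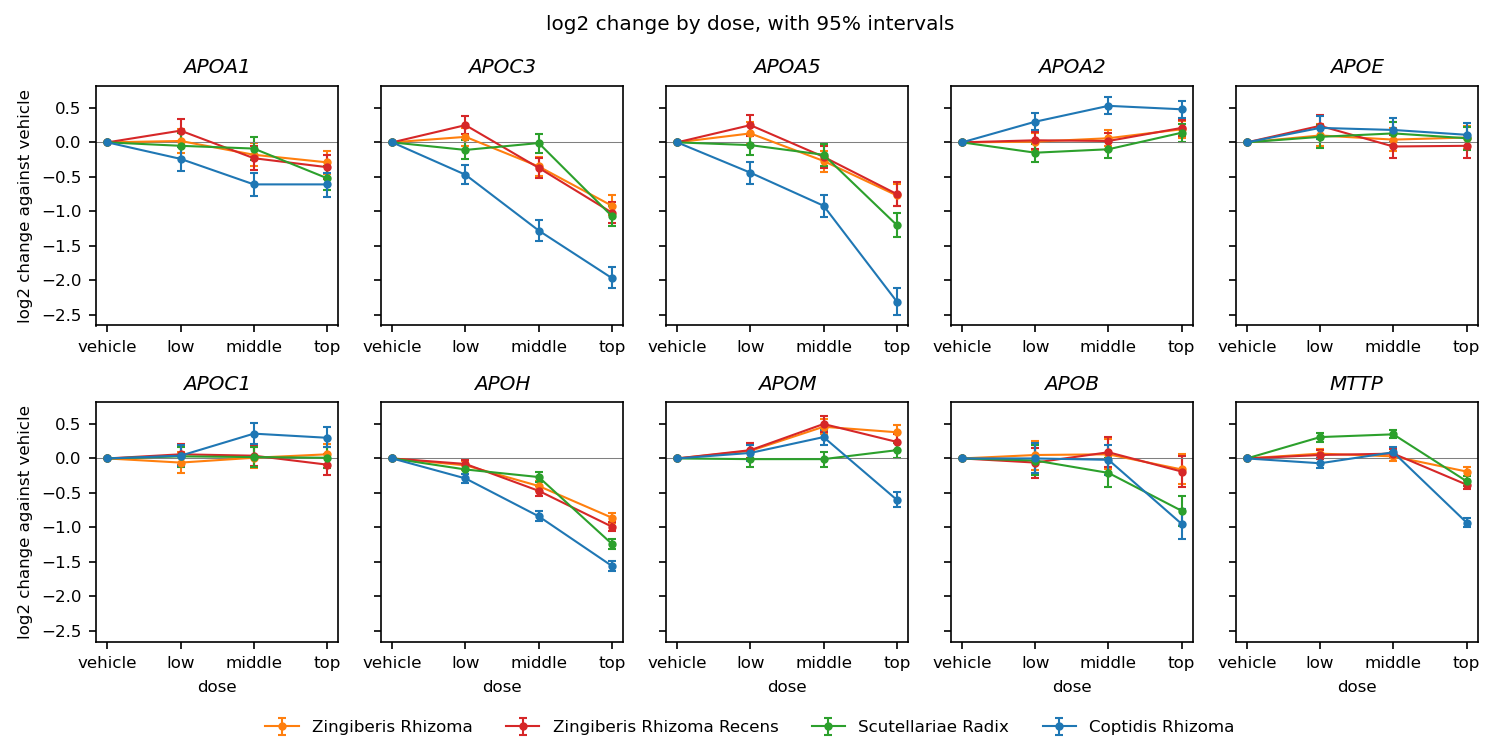
Log2 change against vehicle with 95% intervals (vertical bars) of the 10 members at the low, middle and top dose of 4 extracts; doses are ranks, since the top dose of Coptidis is 210 ug/mL and that of the others 500 ug/mL. *APOH*, *APOC3* and *APOA5* decline over the doses of Coptidis, whereas *APOM*, *APOB* and *MTTP* lie at 0.31, -0.02 and 0.09 at its middle dose (*MTTP* -0.07 when scaled by library totals alone) and at -0.60, -0.95 and -0.93 at its top dose.

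Wortmannin and Coptidis 210 ug/mL both raised *APOA2* and *APOC1*, and *APOH* was called lower with both (-0.10 and -1.56, the first a call lost in some settings). *APOA5*, *APOC3*, *APOM* and *MTTP* rose with wortmannin and fell with Coptidis, as did *APOA1*, whose call with wortmannin was lost under the settings named above. Both comparisons use the same vehicle libraries, and the likeness of the 2 patterns was not tested.

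**Figure D4:**
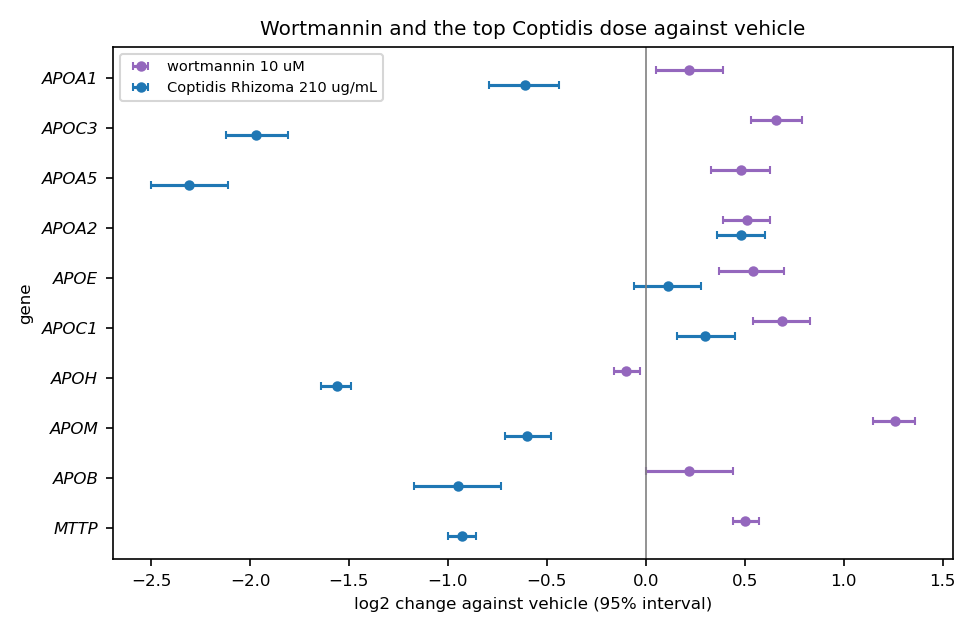
Log2 change against vehicle with its 95% interval (horizontal bars) of each member with wortmannin 10 uM and with Coptidis 210 ug/mL. *APOA2* and *APOC1* lie above 0 for both (0.51 and 0.69 with wortmannin, 0.48 and 0.30 with Coptidis), whereas *APOC3* lies at 0.66 with wortmannin and -1.97 with Coptidis.

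A comparison of the top with the bottom dose within an extract does not use vehicle and does not cross the title numbers. Coptidis 210 against 8.4 ug/mL raised 2 members and lowered 7, where 65.8% of all genes were called (33% higher and 32.8% lower). *APOA5* (-1.87, SE 0.102), *APOC3* (-1.50, SE 0.082), *APOH* (-1.27, SE 0.035), *APOB* (-0.96, SE 0.109), *MTTP* (-0.86, SE 0.035), *APOM* (-0.67, SE 0.058) and *APOA1* (-0.38, SE 0.086) were lower. *APOC1* (0.26, SE 0.074) and *APOA2* (0.18, SE 0.061) were higher, and the adjusted p of these 9 was 0.0077 at most. Scutellariae 500 against 20 ug/mL raised 1 member and lowered 6, where 49.9% of all genes were called (24.5% higher and 25.4% lower). *APOA5* (-1.17), *APOH* (-1.08), *APOC3* (-0.97), *APOB* (-0.73), *MTTP* (-0.64) and *APOA1* (-0.47) fell. *APOA2* rose, with 2159 ± 51.4 CPM at 500 ug/mL against 1767 ± 202 CPM at 20 ug/mL (SD, n = 3 each; 0.29, SE 0.061, adjusted p = 6.83e-05). *APOM* was not called (0.13, adjusted p = 0.0536), except under 4 of the processing alternatives and without replicate 2 at 500 ug/mL (0.16, adjusted p = 0.0354, range 0.00965 to 0.173).

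Fresh ginger 500 against 20 ug/mL raised 1 member and lowered 6, where 48.1% of all genes were called (24.4% higher and 23.6% lower). *APOC3* (-1.27, SE 0.072), *APOA5* (-1.0, SE 0.081), *APOH* (-0.90, SE 0.035), *APOA1* (-0.53, SE 0.086), *MTTP* (-0.43, SE 0.034) and *APOE* (-0.29, SE 0.083) fell, and *APOA2* was called higher (0.18, SE 0.061, adjusted p = 0.00975). Dried ginger 500 against 20 ug/mL raised 2 and lowered 5, where 41% of all genes were called (20.9% higher and 20.1% lower). *APOC3* (-0.99), *APOA5* (-0.90), *APOH* (-0.76), *APOA1* (-0.30) and *MTTP* (-0.26) fell, and *APOM* (0.27) and *APOA2* (0.18) were called higher. The *APOA2* call of fresh ginger was lost without replicate 1 of fresh ginger 20 ug/mL or replicate 3 of fresh ginger 500 ug/mL (adjusted p 0.0516 to 0.0596 there, 5.36e-05 to 0.0596 over all settings tried). That of dried ginger (adjusted p = 0.0117) was lost without replicate 1 of dried ginger 20 ug/mL or replicate 3 of dried ginger 500 ug/mL (adjusted p 0.0681 to 0.0959 there, 0.000119 to 0.0959 over all settings tried). *APOE* was not called with dried ginger (-0.03), but without replicate 1 at 500 ug/mL, which stood apart and had 672 CPM beside 467 and 445, it was called lower (-0.24, adjusted p = 0.00465, range 0.00343 to 0.995). *APOM* was not called with fresh ginger (0.12), except under 3 of the processing alternatives and without replicate 2 at 20 ug/mL (0.17, adjusted p = 0.0165, range 0.0165 to 0.328).

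Fresh and dried ginger were compared at each dose. At 500 ug/mL 0 members were higher and 2 lower with fresh ginger, where 1.83% of all genes were called (0.961% higher and 0.871% lower). *MTTP* had 73.6, 73.7 and 71.2 CPM with fresh ginger, against 80.6, 84.7 and 83.3 CPM with dried ginger, without overlap (-0.19, SE 0.034, adjusted p = 0.000528). This call was lost when only the 2 groups were fitted (adjusted p 0.137 there, 3.16e-05 to 0.137 over all settings tried). *APOH* had 689, 671 and 636 CPM with fresh ginger, against 732, 718 and 724 CPM with dried ginger, also without overlap (-0.12, SE 0.034, adjusted p = 0.0443). The *APOH* call was lost without replicate 1 or 3 of dried ginger 500 ug/mL or replicate 2 or 3 of fresh ginger 500 ug/mL, and with scaling by library totals and without a filter on low counts and without the libraries that stood apart and when only the 2 groups were fitted (adjusted p 0.0558 to 0.442 there, 0.00935 to 0.442 over all settings tried). *APOM* was not called (-0.14, 95% interval -0.25 to -0.03), except without replicate 2 of dried ginger (-0.20, adjusted p = 0.0388, range 0.0388 to 0.774). The other 7 members differed by -0.15 to 0.02 (log2), with 95% intervals that together ran from -0.30 to 0.20. At 100 and 20 ug/mL 0 members were called in edgeR and DESeq2, and 1 and 1 had an unadjusted p under 0.05 in edgeR, where at 100 ug/mL 0.379% of all genes were called (0.324% higher and 0.0541% lower) and at 20 ug/mL 0.0481% of all genes were called (0.0421% higher and 0.00601% lower). These shares count calls at an adjusted p, and are no background for members at an unadjusted p.

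Pinelliae and Zizyphi changed few members. Pinelliae changed 0 of 10 in edgeR and DESeq2 at 20, 100 and 500 ug/mL, and 1, 2 and 2 members had an unadjusted p under 0.05 in edgeR. The shares of all genes given here count calls at an adjusted p, and are no background for counts at an unadjusted p. At 20 ug/mL 0.00601% of all genes were called (0.00601% higher and 0% lower), at 100 ug/mL 0.204% of all genes were called (0.0841% higher and 0.12% lower) and at 500 ug/mL 4.57% of all genes were called (2.64% higher and 1.93% lower). Between its doses 1 member was called, *MTTP* at 500 against 20 ug/mL, with 97.2, 104 and 102 CPM against 89.5 and 93.7 CPM (0.14, SE 0.037, adjusted p = 0.0295), where 1.9% of all genes were called (1.2% higher and 0.703% lower). These libraries did not overlap, but the call was lost without replicate 1 or 3 of Pinelliae 20 ug/mL or replicate 2 or 3 of Pinelliae 500 ug/mL, and with scaling by library totals and without a filter on low counts and when only the 2 groups were fitted (adjusted p 0.0537 to 0.535 there, 0.00998 to 0.535 over all settings tried). Zizyphi changed 0 of 10 at 100 ug/mL in edgeR and DESeq2, with 3 at an unadjusted p under 0.05, where 0.228% of all genes were called (0.132% higher and 0.0961% lower). At 20 ug/mL it raised 1 member, *APOE*, and lowered 1, *MTTP* (-0.13, SE 0.033, adjusted p = 0.028), where 1.99% of all genes were called (1.23% higher and 0.763% lower). The *MTTP* call was lost without replicate 1, 2 or 3 of vehicle or replicate 1 or 2 of Zizyphi 20 ug/mL, and without a filter on low counts and without the libraries that stood apart and when only the 2 groups were fitted (adjusted p 0.0674 to 0.524 there, 0.00328 to 0.524 over all settings tried). Without replicate 3 of Zizyphi 20 ug/mL, 4 members were called there, among them *APOA1* (0.24, adjusted p = 0.0421, range 0.0421 to 0.906). The share of all genes called in that fit is not given here.

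Zizyphi 500 against 20 ug/mL raised *MTTP* (0.17, SE 0.033, adjusted p = 0.000731) and lowered *APOH* (-0.13, SE 0.034, adjusted p = 0.0129), where 7.22% of all genes were called (4.39% higher and 2.82% lower). The *MTTP* call was lost when only the 2 groups were fitted (adjusted p 0.417 there, 5.67e-05 to 0.417 over all settings tried). The *APOH* call was lost without replicate 1 of Zizyphi 20 ug/mL or replicate 2 of Zizyphi 500 ug/mL, and without the libraries that stood apart and when only the 2 groups were fitted (adjusted p 0.0838 to 0.448 there, 0.00135 to 0.448 over all settings tried). Without replicate 3 at 20 ug/mL, 5 members were called, with *APOA1* (-0.26, adjusted p = 0.02, range 0.02 to 0.973), *APOB* (0.46, adjusted p = 0.00112, range 3.02e-06 to 0.981) and *APOC1* (-0.32, adjusted p = 0.00113, range 0.000264 to 0.722) besides the first 2. The share of all genes called without that replicate is not given here. Dried ginger 20 ug/mL also changed 0 of 10 in edgeR and DESeq2, with 2 at an unadjusted p under 0.05, where 0.0841% of all genes were called (0.024% higher and 0.0601% lower). That share counts calls at an adjusted p, and is no background for the 2 members at an unadjusted p.

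Across the means of the 20 groups, which share a count table, its scaling and the dose series of each extract, Pearson's r of log2 CPM was 0.97 between *APOA5* and *APOC3* and 0.95 between *APOA1* and *APOC3*. *APOH* had r = 0.94 with *APOC3*, 0.94 with *APOA5* and 0.91 with *APOA1*, which lie on another chromosome. *APOA2* and *APOC1* had r = 0.78, and *APOA2* was at -0.49 with *APOA1* and -0.54 with *APOH*. The neighbours *APOE* and *APOC1* had r = 0.56. *APOB* and *MTTP*, which act together in assembly, had r = 0.78, and *APOM* was at 0.61 with *MTTP* and 0.21 with *APOH*.

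By the same measure the tested genes most like *APOH* were *RHOBTB1* (0.992) and *ACSM2B* (0.986), those most like *APOA5* *SERPINF2* (0.989) and *SLC39A5* (0.985), and those most like *APOC3* *PDZK1* (0.988) and *CABLES2* (0.986). For *APOA1* they were *PCOLCE* (0.944) and *C1R* (0.939), for *APOB* *DENND11* (0.957) and *HOOK1* (0.953), and for *MTTP* *ENPP3* (0.952) and *NMT2* (0.948). *APOM* was most like *G6PC1* (0.924) and *PPFIBP2* (0.911), and *APOA2* like *ARSD* (0.911) and *RENBP* (0.907). *APOC1* was most like *PTPRN2* (0.886) and *DRAM2* (0.861), and *APOE* like *NPC2* (0.864) and *DUSP15* (0.855).

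A list of 16 other apolipoprotein and related genes included *CLU*, *SAA4*, *APOO*, *APOOL* and genes of the *APOL* family. Of these, 12 were tested, and 3 rose and 6 fell with Coptidis 210 ug/mL (75% called, beside 69.4% of all genes). The median log2 change of the 12 was -0.63, beside 0.00 for all genes. *APOA4*, a neighbour of *APOA5*, was scarce, at 0.563 ± 0.111 CPM against 2.10 ± 0.120 CPM in vehicle (SD, n = 3 each; -1.89, SE 0.232, adjusted p = 4.38e-10). *APOF*, whose product restrains lipid transfer between particles, also fell (-1.20, SE 0.178, adjusted p = 5.66e-08). With fresh ginger 500 ug/mL 3 rose and 5 fell (66.7%, beside 46%), and with dried ginger 3 rose and 3 fell (50%, beside 42.4%). *APOL1*, the gene of an HDL protein, was at 72.9 ± 5.41 CPM with fresh and 67.5 ± 2.02 CPM with dried ginger, against 33.6 ± 1.79 CPM in vehicle (SD, n = 3 each; 1.12 (SE 0.059) and 1.01 (SE 0.059), adjusted p = 5.13e-22 and 3.88e-20). *APOL2* rose as well, by 1.26 and 1.15. With wortmannin 3 rose and 3 fell (50%, beside 32.2%), with *APOC2*, whose product activates lipoprotein lipase, at 0.67 (SE 0.131).

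Of 26 other genes of lipoprotein assembly and secretion, 5 rose and 14 fell with Coptidis 210 ug/mL, which is 73.1% called, beside 69.4% of all genes. *DGAT1*, which makes triglyceride, was at 16.7 ± 0.459 CPM, against 74.8 ± 3.07 CPM in vehicle (SD, n = 3 each; -2.16, SE 0.058, adjusted p = 6.04e-35). *VMP1*, a lipid scramblase of the endoplasmic reticulum, rose (1.19, SE 0.038, adjusted p = 1.56e-31). With Scutellariae 500 ug/mL 4 rose and 14 fell (69.2%, beside 50.2%), with fresh ginger 7 rose and 8 fell (57.7%, beside 46%), and with dried ginger 5 rose and 8 fell (50%, beside 42.4%). *DGAT1* and *DGAT2* were at -0.82 and -0.62 with Scutellariae, -1.06 and -0.86 with fresh and -0.87 and -0.79 with dried ginger (log2), all called. With wortmannin 8 rose and 0 fell (30.8%, beside 32.2%), with *CIDEB*, which helps load VLDL with lipid, at 0.66 (SE 0.053).

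Of 28 genes of lipoprotein receptors and remodelling 23 were tested, and with Coptidis 210 ug/mL 4 rose and 14 fell (78.3% called, beside 69.4% of all genes). *VLDLR*, a receptor that binds ApoE, was at 23.4 ± 1.07 CPM, against 2.40 ± 0.135 CPM in vehicle (SD, n = 3 each; 3.29, SE 0.1, adjusted p = 1.07e-32), and it rose with Scutellariae (1.94), fresh ginger (1.45) and dried ginger (1.09) at 500 ug/mL. In these 3 groups 5, 6 and 4 of the 23 rose and 15, 10 and 9 fell, which is 87%, 69.6% and 56.5% called, beside 50.2%, 46% and 42.4% of all genes. With wortmannin 9 rose and 2 fell (47.8%, beside 32.2%).

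Of 30 transcription factors of the liver and of lipid metabolism, 14 rose and 14 fell with Coptidis 210 ug/mL (93.3% called, beside 69.4% of all genes), and 7 rose and 19 fell with Scutellariae 500 ug/mL (86.7%, beside 50.2%). *NR1H4*, the gene of the bile acid receptor, was at 9.32 ± 0.997 CPM with Coptidis, against 75.6 ± 3.46 CPM in vehicle (SD, n = 3 each; -3.02, SE 0.061, adjusted p = 2.97e-40). It also fell with Scutellariae (-1.91), fresh ginger (-1.90) and dried ginger (-1.80) at 500 ug/mL. *CEBPB*, a factor of the acute phase response, rose with Coptidis (2.42, SE 0.17), and *CEBPA*, a factor of the mature hepatocyte, fell with Scutellariae (-1.66, SE 0.101). With fresh ginger 9 of the 30 rose and 15 fell (80%, beside 46%), and with dried ginger 10 rose and 15 fell (83.3%, beside 42.4%). With wortmannin 11 rose and 3 fell (46.7%, beside 32.2%), with *CREB3L3*, whose product in mice activates apolipoprotein genes, at 1.22 (SE 0.085).

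Other hepatocyte products moved in the same groups. Of the 10 hepatocyte markers, 1 rose and 9 fell with Coptidis 210 ug/mL and 10 fell with Scutellariae 500 ug/mL, where 69.4% and 50.2% of all genes were called. At 500 ug/mL 1 rose and 7 fell with fresh ginger and 2 rose and 7 fell with dried ginger, where 46% and 42.4% of all genes were called, and with wortmannin, where 32.2% were called, 8 rose and 0 fell. The summed level of the 10 was 30139 to 30752 CPM with wortmannin, 22059 to 22351 CPM with fresh ginger 500 ug/mL, 20645 to 23340.4 CPM with dried ginger 500 ug/mL, 15845 to 16276 CPM with Coptidis 210 ug/mL, 19128 to 19405 CPM with Scutellariae 500 ug/mL and 25801 to 26666 CPM in vehicle. The part of this shift in the values of the members was not tested. The sum of all 8 enterocyte markers was 418 to 421 CPM with wortmannin, 268 to 275 CPM with Coptidis 210 ug/mL, 228 to 231 CPM with Scutellariae 500 ug/mL and 383 to 389 CPM in vehicle. Nearly all of it was *VIL1*, the gene of an actin-binding protein of microvilli, with means of 414, 270.03, 228 and 382 CPM in these groups, while *FABP2* and *APOA4* had means of 0.563 to 2.66 CPM there. The sum of the 10 markers of blood, endothelium and stroma was 93.8 to 95.6, 125 to 142, 125 to 133 and 82.2 to 86.8 CPM in the same groups, mostly *CD68* (38.4, 78.2, 45.3 and 29.2 CPM) and *ACTA2* (51.9, 49.6, 82.1 and 51.1 CPM).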

How the data were processed

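Per the labels, a directional MGI kit was used for the 59 libraries of HepG2 cells. The submitters' processing notes name Trim Galore 0.6.5, STAR 2.7.3a, RSEM 1.3.3 and GRCh38 for the deposited expected counts. The sources used here give neither their annotation nor their strand setting. Since 24.44% of nonzero values had a fraction, counts were rounded. Of 267 columns, 208 matched no sample of this series and were not used. The series text says that outlier samples with low RNA were left out, and not which.

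Genes passed the low-count filter of edgeR 4.0.16 (filterByExpr), and libraries were scaled by TMM. All 28 comparisons came from 1 quasi-likelihood fit of the 20 groups, with p-values adjusted by Benjamini-Hochberg over 16641 genes. The fit had 39 residual degrees of freedom and a biological coefficient of variation of 4.4%. Libraries stood apart where the mean chi-square per gene against both others of the group exceeded 15. Coordinates came from GENCODE 29 and promoter windows from RefSeq. The fit was tested on simulated data. Alternatives were other scalings, DESeq2 1.42.0, no filter, a replicate block, fits of only the 2 groups compared and leaving out libraries.

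All 10 genes are described. From each other list, up to 3 called genes with the largest changes per treatment at its top dose could be named. The members and lists were chosen with earlier results of these data known, and so support nothing as independent evidence.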

Additional observations from a re-analysis of the deposited data

Results flagged for a closer look

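Fresh and dried ginger at 500 ug/mL differed in 2 members by a direct test of the 1 extract against the other (edgeR's quasi-likelihood test). The log2 difference, fresh minus dried ginger, was -0.19 for *MTTP* and -0.12 for *APOH*. Both calls were lost when only the 2 groups were fitted, and that of *APOH* also under further settings named above. No group of 4 or more libraries existed in which a single outlying library could be tested.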

How the results depend on the processing

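Of the 69 calls of a member against vehicle, 56 held in every setting tried and 13 were lost in some. Of the 121 values without a call, 26 were called in some setting. The 1 reversal was *MTTP* with Coptidis 42 ug/mL, at -0.07 (log2) with scaling by library totals alone. Such scaling moved the median of all genes by over 0.1 only with Coptidis. *APOA5* had the lowest count of the members, 86 in 1 library, so depth limits *APOA5* more than the others. Size factors by relative log expression and DESeq2 left the count of members called within 1.5 times in all 28 comparisons.

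Counts that moved further were small ones. For fresh ginger 20 ug/mL, where 2 members were called, 1 was called with scaling by totals alone, 4 without a filter on low counts, 1 with a replicate block and 4 when only the 2 groups were fitted. Without the filter the count was 1, 2 and 1 for Pinelliae 500, 100 and 20 ug/mL, 4 for Scutellariae 100 ug/mL, 1 for Zizyphi 100 ug/mL, 0 for Pinelliae 500 against 20 ug/mL, 4 for Zizyphi 500 against 20 ug/mL and 1 for fresh against dried ginger 500 ug/mL. In fits of only the 2 groups compared it was 1 for dried ginger 20 ug/mL, 1 for Pinelliae 20 ug/mL, 4 for Scutellariae 100 ug/mL, 3, 1 and 0 for Zizyphi 500, 100 and 20 ug/mL, and 0, 0 and 0 for Pinelliae and Zizyphi 500 against 20 ug/mL and fresh against dried ginger 500 ug/mL. Scaling by totals alone gave 0 for Pinelliae 500 against 20 ug/mL and 1 for fresh against dried ginger 500 ug/mL. Without the 3 libraries that stood apart the count was 2 for Zizyphi 500 ug/mL, 1 for Zizyphi 20 ug/mL, 1 for Zizyphi 500 against 20 ug/mL and 1 for fresh against dried ginger 500 ug/mL. Shares of all genes called under these settings are not given beside these counts. These counts alone therefore do not tell a change in the members from a general change in calls. The causes were not tested.

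Leaving out each library in turn gave 7 to 9 members called with wortmannin, 7 to 7, 3 to 5 and 0 to 2 with fresh ginger 500, 100 and 20 ug/mL, 6 to 7 and 3 to 4 with dried ginger 500 and 100 ug/mL, 6 to 7 and 2 to 3 with Scutellariae 500 and 100 ug/mL, and 9 to 9, 7 to 8 and 4 to 5 with Coptidis 210, 42 and 8.4 ug/mL. It gave 0 to 1 and 0 to 4 with Zizyphi 500 and 20 ug/mL. For the top against the bottom dose it gave 0 to 1 with Pinelliae, 1 to 5 with Zizyphi, 9 to 9 with Coptidis and 7 to 8 with Scutellariae, and 1 to 3 for fresh against dried ginger 500 ug/mL. A group left with 1 library was assumed to vary like the others. Shares of all genes called are not given for these fits.

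Values without a call gained one in several settings. *APOA2* with Scutellariae 500 ug/mL did so with scaling by totals alone, without the filter, without the libraries that stood apart and in the fit of 2 groups, and *APOM* there under the same settings except the filter. *APOE* with Coptidis 42 ug/mL and *APOM* with fresh ginger 500 against 20 ug/mL did so without the filter, without the libraries that stood apart and in the fit of 2 groups. *APOM* with Scutellariae 500 against 20 ug/mL did so with both other scalings, without the libraries that stood apart and in the fit of 2 groups.

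The main fit did not take the replicate numbers to pair libraries, and the correlations below do not settle whether they do. Deviations of treated and vehicle libraries with the same number had a median correlation of -0.015, with 6 of 54 pairs over 0.1. Among libraries of 1 title number, those that share a replicate number had a median of 0.063, with 38 of 123 pairs over 0.1, and those with different numbers -0.022, with 33 of 246. With the number as a block, the count of members called moved by over 1.5 times in 1 of 28 comparisons, fresh ginger 20 ug/mL at 1 against 2 without the block, and 2 single calls were lost. That block was a single effect over all title numbers, and same-numbered libraries of different title numbers had a median correlation of 0.005. A pairing within a title number was therefore not tested.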
